A study of Mus musculus and Homo sapiens
Mus musculus with 14 samples.

Results

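The genes described here are 9 transcription factor genes used to mark retinal ganglion cells or their subtypes (Pou4f1, Pou4f2, Pou4f3, Isl1, Tbr1, Ebf1, Ebf3, Sox11 and Sox4) and Rbpms, which encodes an RNA-binding protein. They were listed by gene symbol, with earlier results of these data known, and all 10 were found among the 24460 genes listed for the retinal layers and among the 18415 listed for the amacrine cells. Light-Seq copies RNA into cDNA inside a fixed section and attaches a DNA barcode with light to the cDNA of chosen regions, and cDNA molecules are then counted by their unique molecular identifiers (UMIs). In 4 retinal sections, separate barcodes were given to the ganglion cell layer (GCL, ganglion cells and displaced amacrine cells), the bipolar cell layer (BCL, which holds bipolar and horizontal neurons together with Müller glia) and the outer nuclear layer (ONL, rods and cones). In 5 further sections, amacrine cells that stained for tyrosine hydroxylase (TH+, the dopaminergic type, a pool of a few cells per section) and amacrine cells that did not (TH-) were barcoded. The retinas were wild-type, of the CD1 IGS strain, in the third week after birth, with no treatment and no transgene. The sections were technical replicates, and the 4 layer sections were cut from 1 animal, so every p-value here measures the spread between sections and not between animals.

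Retinal ganglion cells are the output neurons of the retina, and their axons form the optic nerve. The POU4F (BRN3) proteins are homeodomain factors that act with the LIM-homeodomain factor ISL1 in the differentiation and survival of these cells. The T-box factor TBR1 and the EBF factors mark or specify subsets of them, and the SoxC proteins SOX4 and SOX11 act early in their formation. RBPMS is present across ganglion cell types and is widely used to count them. Several of these genes are not restricted to ganglion cells: Isl1 is also known from ON bipolar cells and cholinergic amacrine cells, and Ebf genes from amacrine cells.

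The 12 layer libraries held 193869 to 801105 UMIs, and the 10 amacrine libraries held 30317 to 200344. Levels are given as CPM, the UMIs of a gene per 1000000 UMIs of its library. A single UMI was worth about 5 CPM in the BCL libraries, which were the shallowest of the layers, so low BCL levels rest on few molecules. Fold changes and p-values were taken from edgeR (quasi-likelihood fit), p-values were adjusted across every tested gene by the Benjamini-Hochberg method, and a gene was called when its adjusted p fell under 0.05. Of 14 other ganglion cell markers written down for comparison, 13 were called higher in the GCL than in the BCL. The summed share of the 14 was 0.893% to 0.991% of UMIs in the GCL, 0.0854% to 0.130% in the BCL and 0.0907% to 0.140% in the ONL. Jam2 was the most abundant of them in the ONL, at a mean of 389 CPM, and was called lower in the GCL than in the ONL. The GCL libraries also carried amacrine markers, at 0.258% to 0.288% against 0.107% to 0.146% in the BCL (11 of 13 called higher in the GCL), and their part in the values of the 10 genes was not tested. In such pooled material, fewer cells of a type and less RNA per cell cannot be told apart.

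Of the 10 genes, 7 were called higher in the GCL than in the BCL (Pou4f1, Pou4f2, Pou4f3, Tbr1, Ebf1, Ebf3 and Rbpms), 2 were called lower (Isl1 and Sox4) and Sox11 was not called. All 11324 genes tested gave 36.5% called in this contrast, with 20.4% higher and 16.1% lower in the GCL. The median log2 fold change was 3.05 over the 10 genes and 0.02 over all genes tested. The CPM ranges of the 4 GCL and 4 BCL libraries did not overlap for 9 of the 10 genes, and for 36.1% of all genes tested. Scaling by column totals instead of TMM turned the split over all genes from 2310 higher and 1826 lower to 1872 higher and 2353 lower. The 10 genes gave 7 higher and 2 lower calls under either scaling, and 7 higher and 1 lower in the 7 of 11 alternatives in which Sox4 lost its call. Against the ONL, 10 of 10 were called higher in the GCL, where 61.5% of all genes were called, 32.2% higher and 29.3% lower. The median log2 fold change against the ONL was 3.44 over the 10 genes and -0.0041 over all genes tested, and the ranges did not overlap for 10 of the 10 genes and 54.8% of all genes. Markers of other cells were also called higher in the GCL than in the ONL: amacrine markers in 11 of 13 and lower in 1 (summed share 0.258% to 0.288% against 0.0491% to 0.0825%), astrocyte markers in 4 of 4 (0.0150% to 0.0212% against 0.000553% to 0.00374%), and pericyte and smooth muscle markers in 4 of 4 (0.0350% to 0.0710% against 0.00342% to 0.00811%). The same was seen for microglia markers in 4 of 4 (0.00676% to 0.0111% against 0.00111% to 0.00258%), endothelial markers in 3 of 4 (0.0126% to 0.0180% against 0.00548% to 0.0131%), Müller glia markers in 5 of 7 with 2 lower (0.140% to 0.152% against 0.0596% to 0.109%) and horizontal cell markers in 1 of 4. Rod markers were lower in the GCL in 8 of 8 (0.441% to 0.755% against 5.53% to 6.84%), cone markers in 7 of 7 (0.00892% to 0.0117% against 0.107% to 0.229%) and bipolar markers in 6 of 11. No marker with a file entry in these lists was at 0 in either layer, and their part in the values of the 10 genes was not tested.

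**Figure D1:**
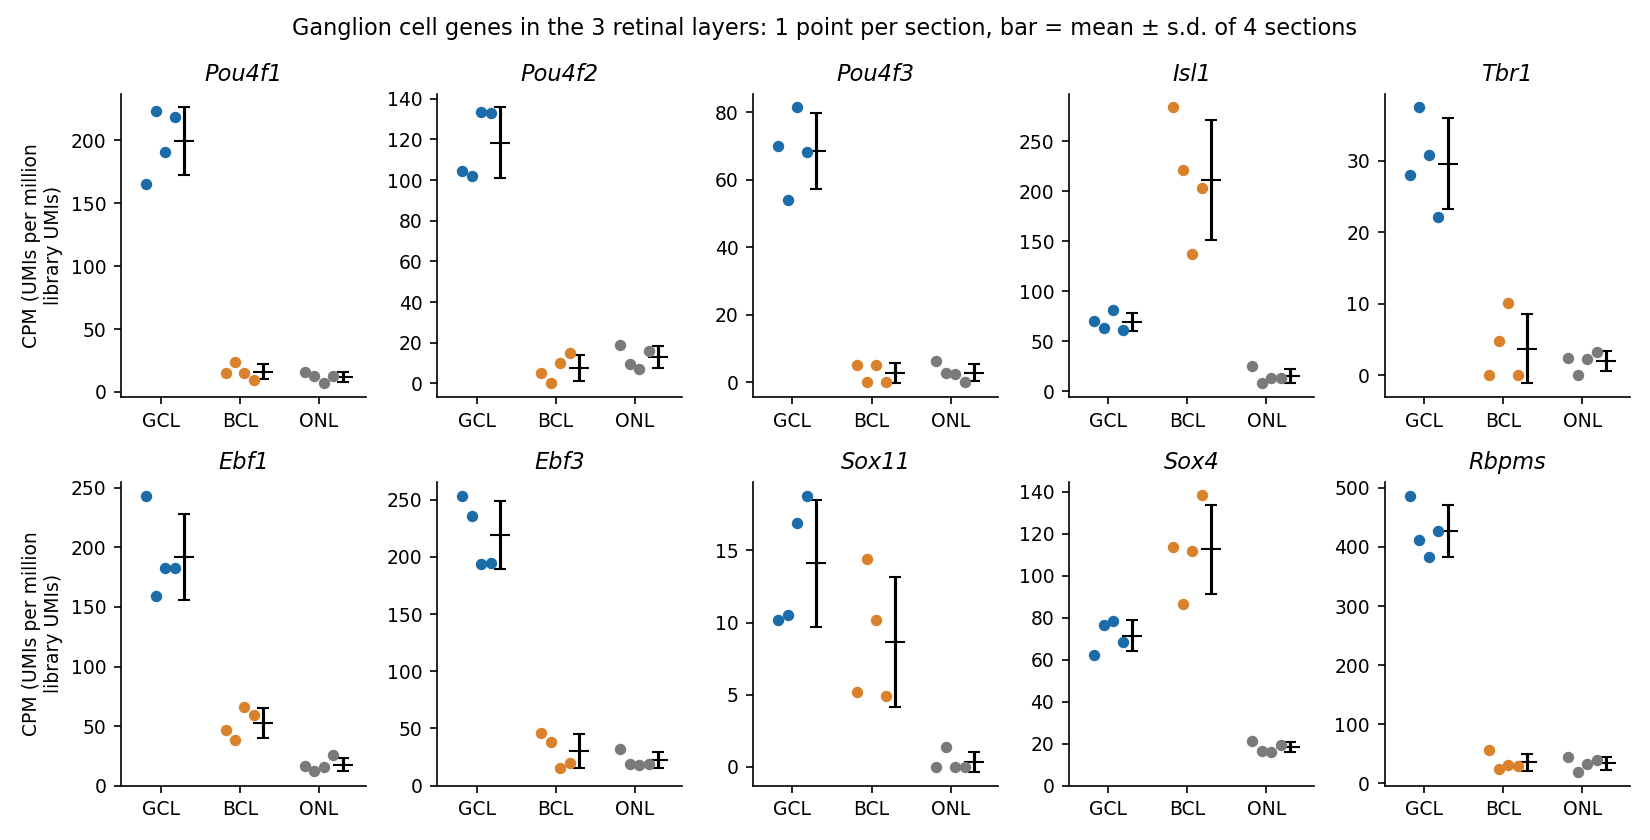
CPM of each of the 10 genes in the GCL, BCL and ONL libraries, with 1 point per section and the mean ± s.d. of 4 sections beside it; each panel has its own linear scale. Pou4f1, Pou4f2, Pou4f3, Tbr1, Ebf1, Ebf3 and Rbpms were highest in the GCL in every section, Isl1 and Sox4 were highest in the BCL, and Sox11 overlapped between the GCL and the BCL.

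Rbpms (chr8:34272116-34420037, minus strand, GRCm39 as all gene positions here) stood at 487, 412, 383 and 427 CPM in GCL sections 1 to 4. In the BCL it stood at 56.7, 24.0, 30.5 and 29.7 CPM. In the ONL it stood at 44.9, 19.4, 32.0 and 38.7 CPM. The GCL libraries lay far above both other layers without overlap, whereas the BCL and ONL ranges overlapped. The GCL mean was 427 ± 43.7 CPM (s.d., n = 4 sections), from 1156 UMIs in all. Rbpms was 13.6-fold higher in the GCL than in the BCL (log2 fold change 3.77 ± 0.21, s.e., edgeR adjusted p = 2.96e-21) and 11.3-fold higher than in the ONL (log2 fold change 3.50 ± 0.16, s.e., edgeR adjusted p = 1.42e-25). BCL and ONL levels did not pass the test of their difference (log2 fold change -0.27 with a 95% interval of -0.93 to 0.38, edgeR adjusted p = 0.578, and 0.070 when scaled by column totals).

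Pou4f1 (Brn3a, chr14:104699112-104705504, minus strand) is the first of the 3 Brn3 genes, and it stood at 166, 223, 191 and 219 CPM in GCL sections 1 to 4. Its BCL libraries held 2 to 5 UMIs each, or 15.5, 24.0, 15.2 and 9.89 CPM. Its ONL libraries held 16.2, 12.4, 6.85 and 12.9 CPM. All 4 GCL libraries stood above every BCL and ONL library, and the other 2 layers overlapped. The log2 fold change of Pou4f1 was 3.76 ± 0.27 (s.e.) against the BCL (edgeR adjusted p = 4.77e-17) and 3.77 ± 0.21 (s.e.) against the ONL (edgeR adjusted p = 1.68e-22).

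Pou4f2 (Brn3b, chr8:79159638-79163278, minus strand), the member of the family that acts earliest in ganglion cell formation, stood at 104, 102, 134 and 133 CPM in the GCL. It stood at 5.16, 0, 10.2 and 14.8 CPM in the BCL and at 18.7, 9.68, 6.85 and 16.1 CPM in the ONL. The highest value outside the GCL was thus below every GCL value. Pou4f2 was 17.0-fold higher in the GCL than in the BCL (log2 fold change 4.09 ± 0.38, s.e., edgeR adjusted p = 3.02e-13) and 7.81-fold higher than in the ONL (log2 fold change 2.96 ± 0.24, s.e., edgeR adjusted p = 6.06e-16).

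Pou4f3 (Brn3c), which is known from a smaller set of ganglion cells and from hair cells, stood at 70.1, 54.0, 81.5 and 68.3 CPM in the GCL. The 4 BCL libraries held 2 UMIs of it together and the ONL libraries 8. The ratio of pooled CPM between the GCL and the BCL was 27.4, with a 95% counting interval of 7.48 to 228, and the ranges did not overlap. The contrast was called (edgeR adjusted p = 9.74e-11), as was that with the ONL (log2 fold change 4.02 ± 0.35, s.e., edgeR adjusted p = 1.12e-14, and 4.73 without section 1). Summed over the 3 Brn3 genes, the GCL libraries held 340 to 420 CPM, the BCL libraries 24.0 to 30.5 CPM and the ONL libraries 16.0 to 41.2 CPM.

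The POU4F genes are close paralogs, and the submitters discarded reads that matched several places. The longest stretch that Pou4f1 and Pou4f2 share within their coding sequences is 71 bases, at chr14:104703490-104703560 and at chr8:79161691-79161761, both on the minus strand of GRCm39 and inside a coding exon. A cDNA read, of at most 40 bases, that falls wholly within it cannot be assigned to either gene. Of the 4810 distinct windows of 40 bases in Pou4f1 transcripts, 0.956% occurred in another gene's transcripts, and of the 2567 in Pou4f3 transcripts, 0.078%. For Pou4f2 it was 14.2% of 3170, of which 43 windows were shared with Pou4f1 and the rest lay in a lncRNA gene annotated on the opposite strand. That lncRNA gene overlaps 453 exonic bases of Pou4f2 at the same genomic place. A read there does not match several places for that reason, so the 14.2% is not a share of reads discarded as multimapped. Of the 10 genes, only Isl1 had no shared window. Such a count covers windows read in either direction.

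**Figure D2:**
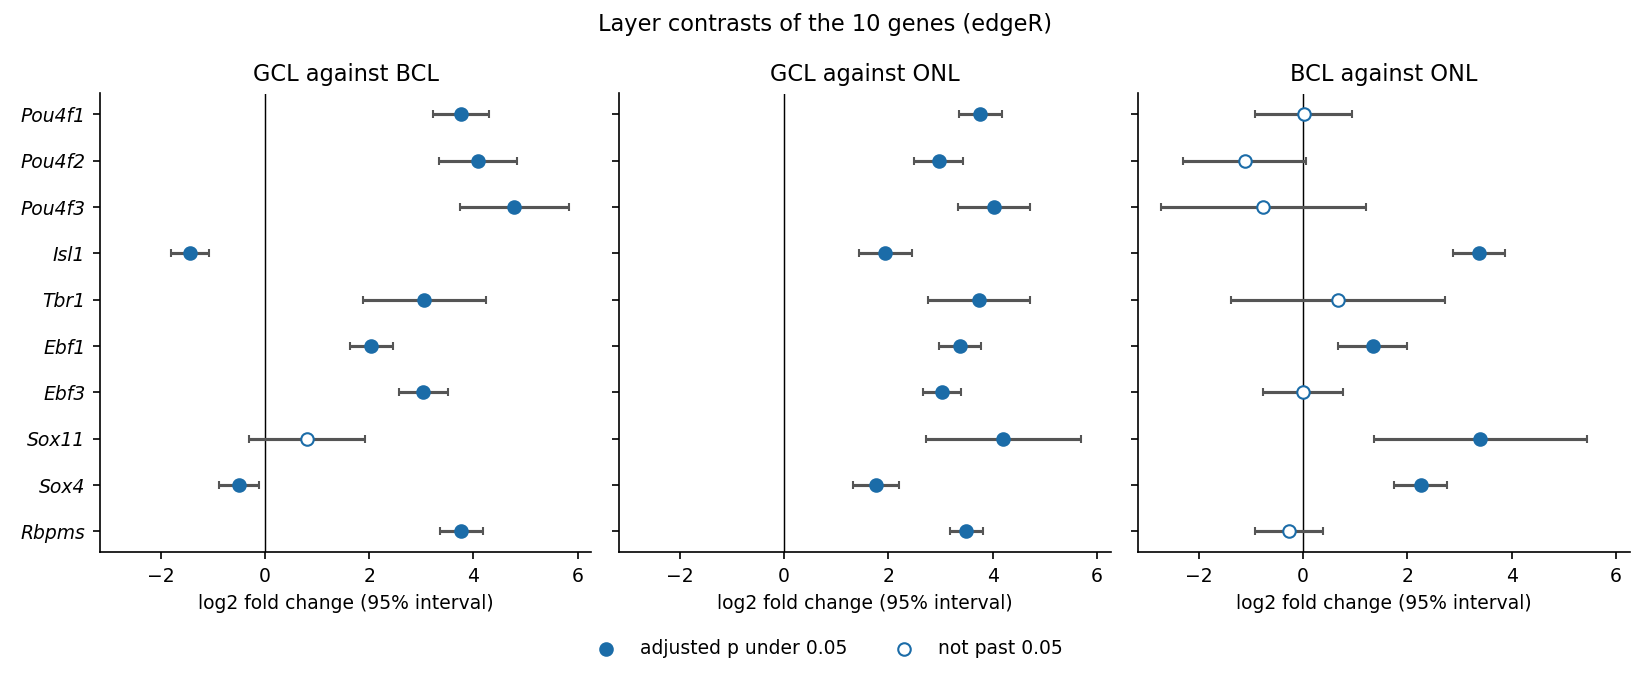
log2 fold change of each gene with its 95% interval in the 3 layer contrasts, from edgeR; filled points passed an adjusted p of 0.05 and open points did not. In the middle panel (GCL against ONL) all 10 points lie above 0, and in the left panel (GCL against BCL) Isl1 and Sox4 lie below 0.

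Ebf3 (chr7:136795402-136916218, minus strand) and Ebf1 (chr11:44508138-44898918, plus strand) encode early B cell factor proteins, helix-loop-helix factors of neuronal differentiation. Ebf3 stood at 253, 235, 194 and 195 CPM in the GCL, at 46.4, 38.4, 15.2 and 19.8 CPM in the BCL and at 32.5, 19.4, 18.3 and 19.3 CPM in the ONL. Ebf1 stood at 243, 159, 183 and 183 CPM in the GCL, at 46.4, 38.4, 66.1 and 59.3 CPM in the BCL and at 16.2, 12.4, 16.0 and 25.8 CPM in the ONL. The GCL ranges of both genes stood apart from the other layers, and section 1 was the highest GCL library for each. Only for Ebf1 did the BCL range also lie wholly above the ONL range. Against the BCL, Ebf3 was 8.20-fold higher in the GCL (log2 fold change 3.04 ± 0.24, s.e., edgeR adjusted p = 1.16e-15) and Ebf1 4.12-fold higher (log2 fold change 2.04 ± 0.21, s.e., edgeR adjusted p = 1.08e-11). Their log2 fold changes against the ONL were 3.04 ± 0.19 and 3.38 ± 0.20 (s.e.), both called. Pericyte and smooth muscle markers were also higher in the GCL (4 of 4 tested called, summed share 0.0350% to 0.0710% against 0.0165% to 0.0216% in the BCL, none of the 5 at 0 UMIs in either layer), and their part in the Ebf1 values was not tested. Astrocyte markers (3 of 4 called higher, 0.0150% to 0.0212% against 0.00206% to 0.00544%, with S100b at 0 in the BCL), microglia markers (2 of 4 higher, 0.00676% to 0.0111% against 0.00258% to 0.00672%) and endothelial markers (2 of 4 higher and 1 lower, 0.0126% to 0.0180% against 0.0803% to 0.0918%) also differed between the GCL and the BCL, and their part in the values of the 10 genes was not tested. The endothelial gene called lower was Kdr, named as the most abundant of its list. It made up most of the endothelial share in the BCL, at a mean of 833 CPM against 87.2 CPM in the GCL. The longest coding run that Ebf1 and Ebf3 share is 24 bases, shorter than a read.

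Tbr1 (chr2:61633274-61644458, plus strand) encodes a T-box factor of a subset of ganglion cells. It stood at 28.0, 37.5, 30.7 and 22.2 CPM in the GCL, from 80 UMIs in all. The BCL libraries held 3 UMIs together and the ONL libraries 4, and no library of either layer reached the lowest GCL level. The ratio of pooled CPM was 7.95 against the BCL (95% counting interval 2.62 to 39.4) and 16.9 against the ONL (95% counting interval 6.35 to 63.5). Both contrasts were called (edgeR adjusted p = 4.04e-05 against the BCL and 4.87e-09 against the ONL). Without section 3 the log2 fold change against the BCL was 4.11 in place of 3.06, and without section 2 that against the ONL was 3.13 in place of 3.74, and both stayed called.

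Homeodomain factors such as the POU4F proteins and ISL1 bind sites built on the core TAATTA, a sequence that reads the same on both strands. In RefSeq promoters of GRCm38.p6, taken as the 250 bases before the start site, 4.84% of 32851 promoters held at least 1 such match. Promoters of 8 of the 10 genes were searched, since the table used has no entry for Rbpms and that of Pou4f3 was left out, and of these 8 only Tbr1 held matches, at 33 and 18 bases before the start. It is printed for this reason, at chr2:61804203-61804452 on the plus strand, with the matches in capitals.
Tbr1 promoter: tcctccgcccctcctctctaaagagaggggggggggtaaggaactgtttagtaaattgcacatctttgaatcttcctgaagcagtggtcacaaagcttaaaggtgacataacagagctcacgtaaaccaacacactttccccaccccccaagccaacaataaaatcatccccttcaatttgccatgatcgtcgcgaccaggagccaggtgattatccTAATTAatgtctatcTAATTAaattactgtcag
The other motifs searched on both strands were the octamer ATGCAAAT (in 1.6% of all promoters), the EBF palindrome (0.779%), the T-box site AGGTGTGA (1.12%) and the SOX core AACAAAG (5.03%), and the promoters of these 8 genes held none of them. A match is a description of letters and not of binding.

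Isl1 (chr13:116434817-116446235, minus strand) ran the other way between the GCL and the BCL. The BCL libraries held 284, 221, 137 and 203 CPM in sections 1 to 4 and the GCL libraries 70.1, 62.9, 81.5 and 61.5 CPM. The ONL libraries held 25.0, 8.30, 13.7 and 12.9 CPM. The 3 layers did not overlap, and the order BCL, GCL, ONL held within each of the 4 sections. Isl1 was 2.71-fold lower in the GCL than in the BCL (log2 fold change -1.44 ± 0.19, s.e., edgeR adjusted p = 6.65e-09) and 3.85-fold higher in the GCL than in the ONL (log2 fold change 1.94 ± 0.26, s.e., edgeR adjusted p = 5.11e-09). The BCL stood 10.4-fold above the ONL (log2 fold change 3.38 ± 0.25, s.e., edgeR adjusted p = 1.41e-16). Bipolar markers moved in the same direction: 11 of 11 tested were lower in the GCL than in the BCL, their summed share was 0.0372% to 0.0546% in the GCL, 0.736% to 0.827% in the BCL and at most 0.135% in the ONL, and none of the 11 was at 0 in any layer. Müller glia markers (6 of 7 lower, 0.140% to 0.152% in the GCL against 0.670% to 0.745% in the BCL, none at 0) and horizontal cell markers (3 of 4 lower, 0.0145% to 0.0208% against 0.164% to 0.202%) moved the same way. Rod markers were lower in the GCL too (8 of 8, median log2 fold change -1.22), as was 1 of 7 cone markers. The part of these lists in the Isl1 values was not tested.

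The SoxC genes Sox4 and Sox11 encode HMG-box factors. Sox4 stood at 62.4, 76.4, 78.4 and 68.3 CPM in the GCL, at 113, 86.4, 112 and 138 CPM in the BCL and at 21.2, 16.6, 16.0 and 19.3 CPM in the ONL. The GCL and BCL ranges lay close to each other without overlap. Sox4 was 1.40-fold lower in the GCL than in the BCL (log2 fold change -0.49 ± 0.20, s.e., edgeR adjusted p = 0.044). That call was not kept with the section as a block (log2 fold change -0.48, edgeR adjusted p = 0.0507), nor under DESeq2 (adjusted p = 0.0931), nor without section 1, 3 or 4 (edgeR adjusted p = 0.168, 0.0827 and 0.337). The bipolar, Müller glia, horizontal cell and rod markers that were lower in the GCL moved with Sox4 too, and their part in its values was not tested. Sox4 was 3.39-fold higher in the GCL than in the ONL (log2 fold change 1.76 ± 0.23, s.e., edgeR adjusted p = 1.44e-09) and 4.76-fold higher in the BCL than in the ONL (log2 fold change 2.25 ± 0.26, s.e., edgeR adjusted p = 1.50e-10).

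Sox11 rested on few molecules, with 10.2, 10.5, 16.9 and 18.8 CPM from 37 UMIs in the GCL. The BCL libraries held 5.16, 14.4, 10.2 and 4.94 CPM from 7 UMIs, and the ONL libraries 1 UMI in all. The GCL and BCL ranges overlapped, and their difference was not detectable at this depth (log2 fold change 0.81 with a 95% interval of -0.31 to 1.93, edgeR adjusted p = 0.287). The ratio of pooled CPM against the ONL was 31.3 for the GCL (95% counting interval 5.27 to 1268) and 19.8 for the BCL (95% counting interval 2.55 to 895), and both contrasts were called (edgeR adjusted p = 3.29e-06 and 0.00749). The single ONL UMI lay in section 2, and without that section the fitted log2 fold changes were 5.79 in place of 4.21 for the GCL and 4.51 in place of 3.40 for the BCL.

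Sox4 and Sox11 are single-exon genes that share 48 coding bases, at chr13:29136732-29136779 and chr12:27392165-27392212, both on the minus strand of GRCm39. They are shown because a read of 40 bases within the identical run, in capitals, cannot be assigned to either gene; the lower case letters are the 12 coding bases on each side.
Sox4: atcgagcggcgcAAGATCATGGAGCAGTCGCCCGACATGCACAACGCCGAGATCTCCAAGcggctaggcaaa
Sox11: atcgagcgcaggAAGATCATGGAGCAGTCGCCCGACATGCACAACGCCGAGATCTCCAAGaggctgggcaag
They shared 9 windows of 40 bases with each other. A further overlap concerns strand. A lncRNA gene, A330102I10Rik, lies opposite 907 of the 4795 exonic bases of Sox4, and the protein-coding gene Gtf2e2 lies opposite 1892 of the 16955 of Rbpms. Gene assignment used the default settings of featureCounts, which take no account of strand, so reads from a gene and its antisense partner cannot be told apart in the shared bases. In the counts that were kept, Gtf2e2 stood at 2.55 to 13.7 CPM in the GCL and at 6.24 to 19.3 CPM in the ONL. A330102I10Rik stood at 1.54 to 3.41 CPM in the GCL and 0 to 5.08 CPM in the BCL. These levels do not show how many reads were left out in the shared bases.

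Between the BCL and the ONL, 4 of the 10 genes were called, all higher in the BCL: Isl1, Sox4, Ebf1 and Sox11. Over all genes tested 36.7% were called, 18.2% higher and 18.5% lower in the BCL. With column totals in place of TMM scaling the whole split moved from 2056 higher and 2096 lower to 2889 higher and 1198 lower, while 4 of the 10 genes were called higher and 0 lower under either scaling. Ebf1 was 2.52-fold higher in the BCL (log2 fold change 1.33 ± 0.34, s.e., edgeR adjusted p = 0.00123). The 6 others did not pass the test, and at the few UMIs of Pou4f3 (-0.76 with a 95% interval of -2.73 to 1.21) and Tbr1 (0.68 with -1.38 to 2.73) the intervals were wide. The CPM ranges of the BCL and the ONL did not overlap for 4 of the 10 genes, where 33.2% of all genes tested had ranges that did not overlap. Other ganglion cell transcription factors were called higher in the BCL in 1 and lower in 1 of 16 tested, and other ganglion cell markers higher in 2 and lower in 1 of 14. Markers of cells of the BCL were called higher there, with bipolar markers in 10 of 11 (summed share 0.736% to 0.827% against at most 0.135% in the ONL), Müller glia markers in 7 of 7 (0.670% to 0.745% against 0.0596% to 0.109%) and horizontal cell markers in 4 of 4 (0.164% to 0.202% against 0.00954% to 0.0192%). Pericyte and smooth muscle markers were higher in 2 of 4 (0.0165% to 0.0216% against 0.00342% to 0.00811%), endothelial and astrocyte markers each in 1 of 4, and amacrine markers in 3 of 13 with 2 lower. The endothelial gene called was Kdr, at a mean of 833 CPM in the BCL and 73.4 CPM in the ONL. Rod markers were lower in the BCL in 8 of 8 (1.17% to 2.03% against 5.53% to 6.84%) and cone markers in 7 of 7 (0.0138% to 0.0310% against 0.107% to 0.229%). Of these lists, S100b of the astrocyte markers was at 0 in the BCL, and their part in the values of Isl1, Sox4, Ebf1 and Sox11 was not tested.

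To set levels of different genes side by side, CPM were divided by the gene length that the authors' mouse tables give, as CPM per kilobase. In the GCL, Rbpms was highest at 65.1 ± 6.67 (s.d., n = 4 sections), followed by Pou4f1 at 42.7 ± 5.74, Pou4f2 at 36.9 ± 5.46 and Pou4f3 at 28.5 ± 4.70. Ebf3 at 23.8 ± 3.25, Ebf1 at 19.7 ± 3.70, Isl1 at 17.4 ± 2.30 and Sox4 at 14.9 ± 1.54 formed a second run. Tbr1 at 5.40 ± 1.16 and Sox11 at 1.70 ± 0.53 came last. From Pou4f1 down to Sox4 each gene's range overlapped that of the next, so this order is not resolved between neighbours, whereas Sox4 stood clear of Tbr1 and Tbr1 of Sox11. The first place of Rbpms depended on the length used. The authors' tables give 6556 bases for it, and its annotated exons cover 16955 (GENCODE, an alternative chosen after seeing the data), with which Rbpms stood at 25.2 ± 2.58, below Pou4f1 (42.1 ± 5.66) and Pou4f2 (36.9 ± 5.46), and its range overlapped that of Pou4f3 (26.2 ± 4.32). With those lengths Ebf3 stood at 19.1 ± 2.61, and Sox4, Tbr1 and Sox11 again came last. In the BCL the order began with Isl1 at 53.3 ± 15.2 and Sox4 at 23.5 ± 4.44, and the other 8 genes lay between 0.682 and 5.39 on average.

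**Figure D3:**
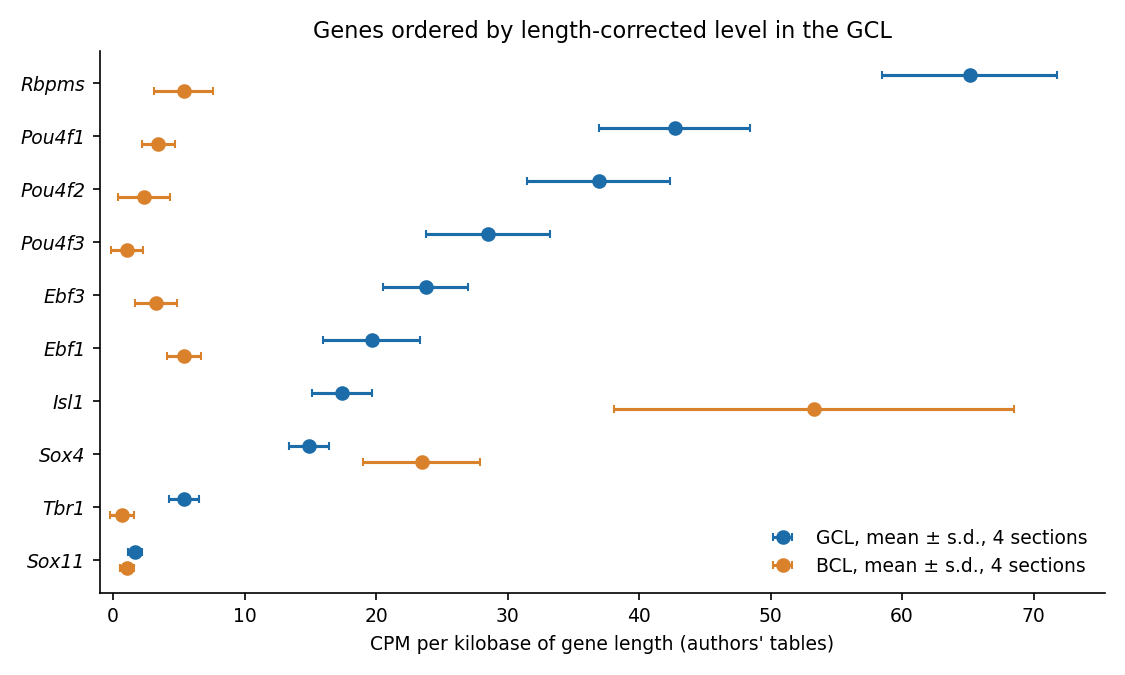
CPM per kilobase of gene length (mean ± s.d., 4 sections) for each gene in the GCL and the BCL, ordered by the GCL level. With the authors' gene lengths, used here, Rbpms stands at 65.1 in the GCL, which becomes 25.2 with all annotated exonic bases, and Isl1 stands at 53.3 in the BCL.

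The paralogs of these genes did not move as a block. Of 6 listed, 5 could be tested and 3 were called higher in the GCL than in the BCL: Rbpms2, Eomes and Isl2. Rbpms2, the sister gene of Rbpms and also a ganglion cell marker, stood at 126 ± 14.7 CPM (s.d., n = 4) in the GCL against 7.54 ± 6.39 in the BCL (log2 fold change 4.18 ± 0.37, s.e., edgeR adjusted p = 7.06e-14). Eomes (Tbr2), the T-box factor of melanopsin ganglion cells, stood at 85.7 ± 22.5 against 7.47 ± 11.8 CPM (log2 fold change 3.62 ± 0.44, s.e., edgeR adjusted p = 1.11e-09). Isl2, in contrast to Isl1, was higher in the GCL, at 48.9 ± 13.1 against 5.05 ± 7.19 CPM (log2 fold change 3.40 ± 0.52, s.e., edgeR adjusted p = 3.25e-07). Ebf4 (log2 fold change 0.45 ± 0.47, s.e.) and Sox12 (-0.14 ± 0.29, s.e.) were not called, and Ebf2, with 14 UMIs in the GCL and 0 in the BCL, fell below the low-count filter. The median log2 fold change was 3.40 over the 5 tested.

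Of 18 other ganglion cell transcription factors, 16 were tested, of which 14 were called higher in the GCL than in the BCL and 1 lower, with a median log2 fold change of 2.98. Among those with the largest changes were Irx2, Tfap2d and Foxp2, each a factor of ganglion cell subsets. Irx2 stood at 38.4 ± 12.1 CPM (s.d., n = 4) in the GCL and at 1 UMI in all BCL libraries, a ratio of 30.1 (95% counting interval 5.28 to 1201). Tfap2d held 74 UMIs against 1 and Foxp2 86 against 2. The gene called lower, named after its value was seen, was Onecut2, known from horizontal as well as ganglion cells, at 24.9 ± 19.9 CPM in the GCL against 120 ± 27.5 in the BCL (log2 fold change -2.07 ± 0.29, s.e., edgeR adjusted p = 4.87e-08). Irx3 was not called (log2 fold change 1.66 ± 0.82, s.e., edgeR adjusted p = 0.107), and Atoh7 (1 UMI in the GCL) and Irx1 (6 UMIs) fell below the filter.

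Among the 14 ganglion cell markers that are not transcription factors, the 13 called higher in the GCL had Thy1 (log2 fold change 4.21 ± 0.22, s.e.), Nrn1 (4.12 ± 0.27), Nefm (3.92 ± 0.18) and Sncg (3.88 ± 0.18) at their head. Thy1, a surface glycoprotein, stood at 989 ± 51.2 CPM (s.d., n = 4) in the GCL against 59.9 ± 23.0 in the BCL. Jam2, an adhesion protein, was not called, at 153 ± 8.07 against 138 ± 17.5 CPM (log2 fold change 0.31 ± 0.17, s.e., edgeR adjusted p = 0.148). Against the ONL, where it stood at 389 ± 54.9 CPM, Jam2 was 2.86-fold lower in the GCL (log2 fold change -1.51 ± 0.12, s.e., edgeR adjusted p = 1.25e-16). The other 13 markers were called higher in the GCL than in the ONL. The median log2 fold change of the markers was 3.62.

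**Figure D4:**
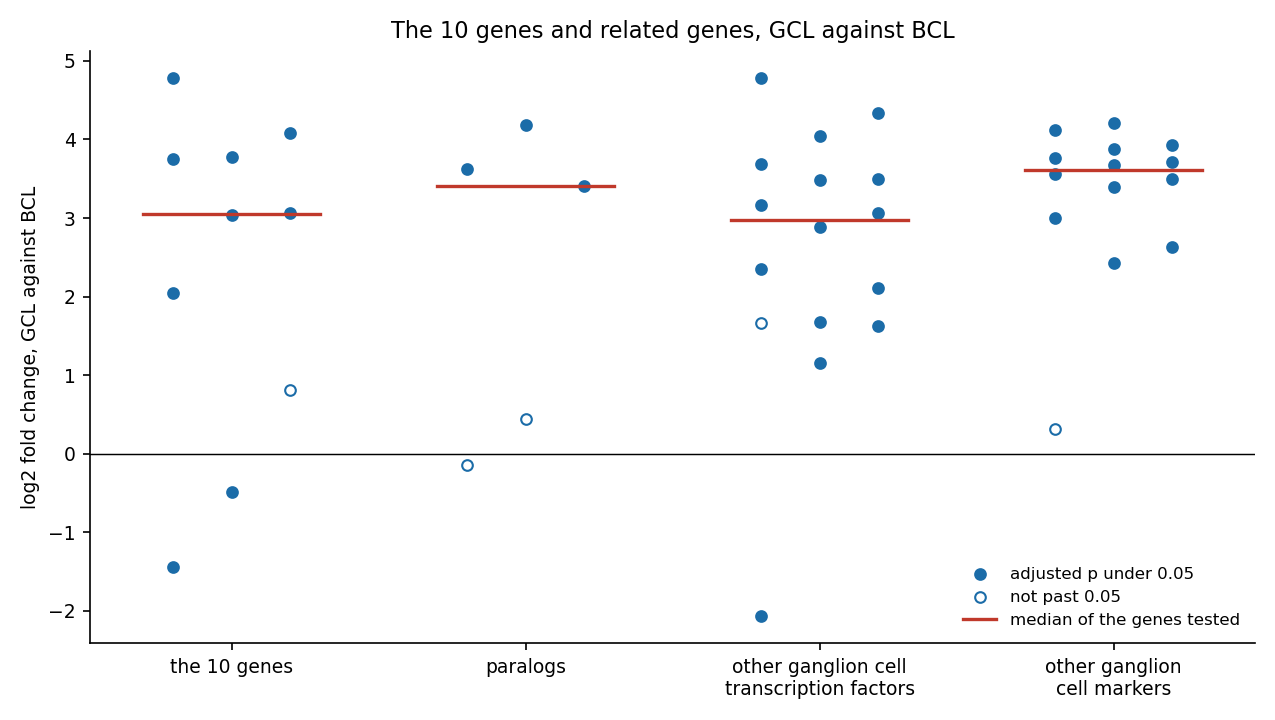
log2 fold change of the GCL against the BCL for the 10 genes, their 5 tested paralogs, 16 other ganglion cell transcription factors and 14 other ganglion cell markers; each point is a gene, filled where the adjusted p was under 0.05, and the red line is the median of a list. The medians lie at 3.05, 3.40, 2.98 and 3.62, and Onecut2 (-2.07) is the lowest point.

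Genes with the layer pattern most like that of Rbpms, Pou4f1 and Isl1 were taken as the 3 with the highest Pearson correlation of log2 CPM over the 12 layer libraries. These 12 points share 4 sections of 3 layers, and the correlations are descriptions. For Rbpms they were Srgap1 (r = 0.998), a regulator of the actin cytoskeleton, Kcnq3 (r = 0.992), a potassium channel subunit, and Rab6a (r = 0.991), a GTPase of the Golgi. Srgap1 averaged 635 CPM in the GCL, 55.2 in the BCL and 53.8 in the ONL. In all, 181 genes had r over 0.95 with Rbpms, and the nearest of the other 9 genes described here was Ebf3 (r = 0.970), which ranked 63.

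For Pou4f1 the nearest genes were Pirt (r = 0.990), a regulator of TRP channels, L1cam (r = 0.988), an axonal adhesion molecule, and Cacna1a (r = 0.988), a calcium channel subunit. Pirt averaged 48.8 CPM in the GCL, 1.20 in the BCL and 0.970 in the ONL. With CPM of the column total, Ppfia4 took the place of Cacna1a. For Isl1 they were Hpcal4, a neuronal calcium sensor, the forkhead factor gene Foxp4 and the adaptor gene Sh3pxd2b, each at r = 0.982. Hpcal4 averaged 98.9 CPM in the GCL, 207 in the BCL and 28.7 in the ONL, and Foxp4 103, 232 and 47.3. Sox4 was the nearest to Isl1 of the genes described here (r = 0.938, rank 116).

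In the amacrine libraries the 10 genes summed to 449 to 682 CPM in TH+ cells and 411 to 558 CPM in TH- cells, from 141 and 380 UMIs. In the layer libraries, a separate experiment, they summed to 1372 to 1494 CPM in the GCL, 412 to 578 CPM in the BCL and 102 to 183 CPM in the ONL. The labels held for the stained marker: Th itself stood at 303 to 660 CPM in TH+ and 11.6 to 49.9 CPM in TH- libraries. The 3 Brn3 genes and Tbr1 held 3 to 9 UMIs each over the 5 TH- libraries, while Rbpms, Isl1, the Ebf genes and the SoxC genes held 16 to 134. Of Pou4f1, TH- libraries held 13.1, 0, 22.3, 9.98 and 14.1 CPM against a GCL mean of 200 ± 26.8 CPM. In TH+ section 1 no UMI of it was found among 48978, which allows up to 61.3 CPM.

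In amacrine cells Ebf3 stood at 102, 160, 188, 130 and 165 CPM in TH+ sections 1 to 5 and at 178, 162, 112, 235 and 120 CPM in TH- sections. The ranges overlapped, and the TH- mean of 161 ± 49.6 CPM (s.d., n = 5) stood beside 219 ± 29.9 CPM in the GCL and 30.0 ± 14.9 CPM in the BCL. Sox4 stood at 84.3 ± 25.5 CPM in TH+ and 84.4 ± 16.5 CPM in TH- cells. Ebf1 stood at 92.3 ± 39.1 and 82.0 ± 33.3 CPM, and Isl1 at 63.9 ± 25.2 and 40.8 ± 16.4 CPM. Sox11 was at 35.1 ± 14.2 CPM in TH+ and 21.1 ± 10.3 CPM in TH- cells, against 14.1 ± 4.40 CPM in the GCL. Per kilobase of the authors' lengths, Sox4, Ebf3 and Isl1 stood at 17.6 ± 5.31, 16.1 ± 3.63 and 16.1 ± 6.36 in TH+ cells and at 17.6 ± 3.44, 17.5 ± 5.37 and 10.3 ± 4.14 in TH- cells, with ranges that overlapped between neighbours. Rbpms stood at 7.77 ± 2.12 in TH- cells, or at 3.00 ± 0.82 with all annotated exonic bases.

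Rbpms had the lowest adjusted p of the 6 genes tested between the amacrine groups. It stood at 61.3, 57.2, 94.1, 108 and 99.0 CPM in TH+ sections 1 to 5 and at 46.0, 52.1, 74.4, 39.9 and 42.3 CPM in TH- sections. The TH+ value exceeded the TH- value in 5 of 5 sections, but the ranges overlapped and the TH+ libraries held only 3 to 5 UMIs each. The log2 fold change was 0.64 with a 95% interval of -0.16 to 1.45 (edgeR adjusted p = 0.721). None of the 6 genes that passed the low-count filter was called, and 0 of 6 had an unadjusted p under 0.05 in edgeR. DESeq2 also called 0, with 0 at an unadjusted p under 0.05. Over all 6021 genes tested 0.83% were called, or 50 genes (0.747% higher and 0.083% lower in TH+ cells), and ranges did not overlap for 0 of the 10 genes and 2.28% of those tested. With the section as a block, 148 genes were called and again 0 of these 6. The 95% intervals of the 6 genes reached from -0.81 (Sox4) to 1.90 (Sox11) on the log2 scale, and each held 0. Rod markers were higher in TH+ libraries in 2 of 8 tested, at 1.38% to 3.57% of UMIs against 0.792% to 2.11%, none of the 8 at 0 UMIs in either group, and their part in these values was not tested. Müller glia markers held 0.249% to 0.376% in TH+ and 0.356% to 0.592% in TH- libraries, and bipolar markers 0.0627% to 0.168% and 0.0782% to 0.289%. Other ganglion cell markers held 0.136% to 0.223% and 0.0885% to 0.192%. No gene of these lists was called between the groups, and their part in the amacrine levels was not tested.

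**Figure D5:**
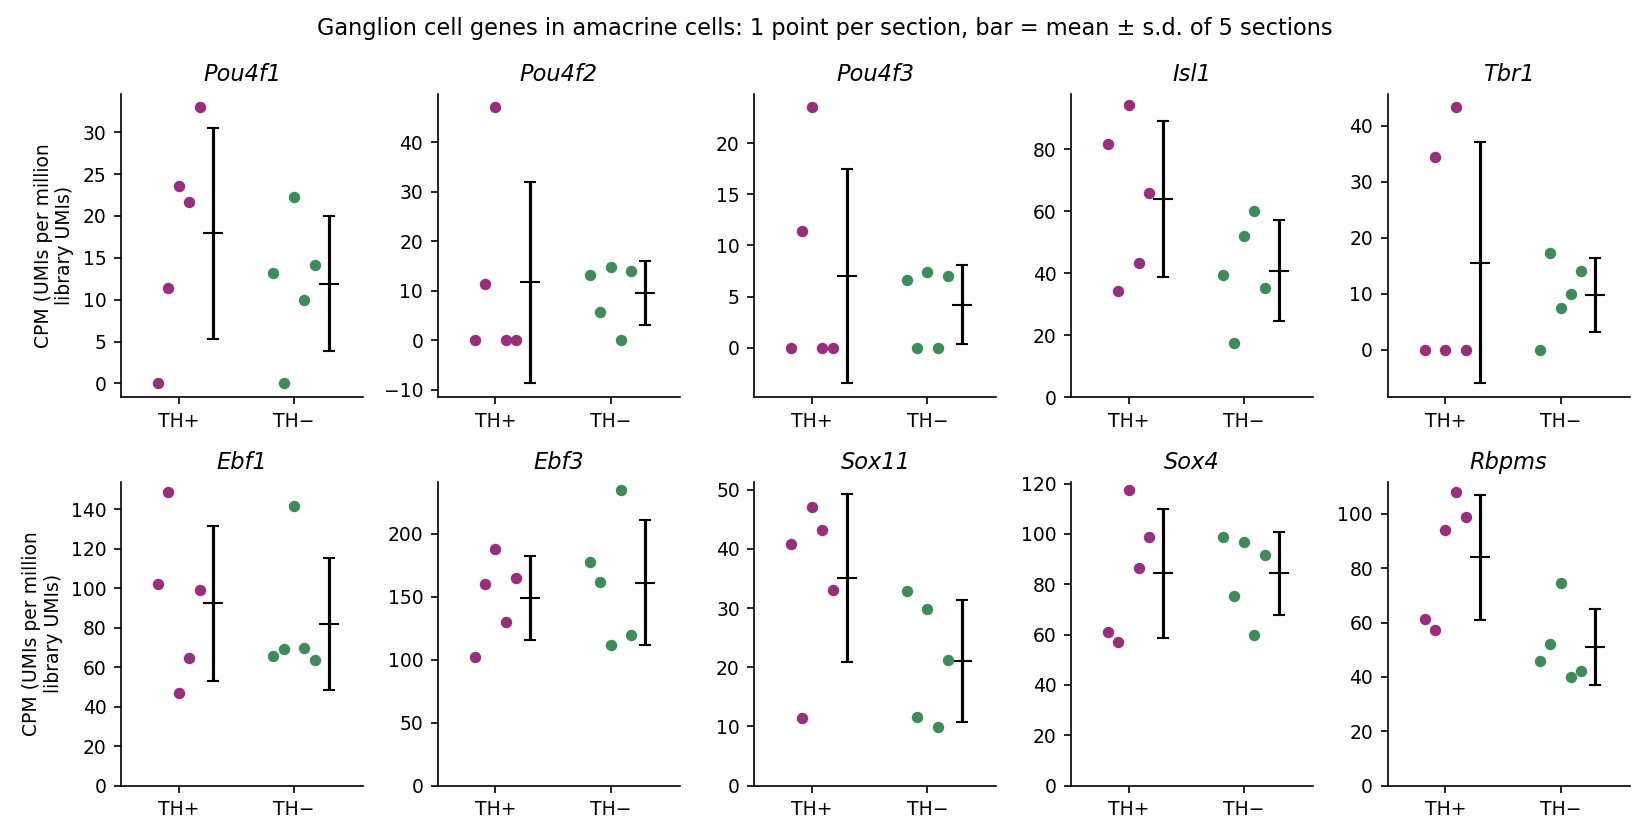
CPM of each of the 10 genes in TH+ and TH- amacrine libraries, with 1 point per section and the mean ± s.d. of 5 sections beside it; each panel has its own linear scale. The groups overlap in every panel, and many TH+ points of Pou4f1, Pou4f2, Pou4f3 and Tbr1 are single UMIs or 0.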

How the data were processed

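Light-Seq libraries of mouse retina sections were analysed as 12 layer libraries and 10 amacrine libraries. The authors extracted cDNA reads of up to 40 nt with UMI-tools 1.1.1, mapped them with STAR 2.7.9a to the mouse genome, discarded multimapped reads, assigned reads to genes with featureCounts and removed duplicate UMIs per gene. Reads of 2 mouse rRNA genes were removed by them. The deposited tables hold raw UMI counts per gene. Gene assignment used the tool's default settings, which are not strand-specific and leave out reads that overlap exons of more than 1 gene.

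Levels are CPM of column totals, and correlations with the nearest genes used TMM-scaled log2 CPM with a prior count of 2. Counts were tested with edgeR 4.0.16 in R 4.3.3 (quasi-likelihood F-test, TMM scaling, low-count filter with a minimum count of 3 and a total of 10, Benjamini-Hochberg adjustment at 0.05), in 1 fit over the layer libraries and 1 over the amacrine libraries. DESeq2 1.42.0, 2 other scalings, 2 other filters, removal of mitochondrial genes, a section block and leaving out each section were alternatives. Counting intervals of ratios cover counting error only, at the 95% level, and a count of 0 was given an upper limit of 3 counts.

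Libraries of 1 section came from the same tissue. Deviations from the group means correlated at 0.0535 to 0.212 within layer sections (8 of 12 pairs over 0.1) and 0.0210 to 0.460 within amacrine sections (2 of 5). Pairs from different sections gave -0.273 to 0.235 for the layers (4 of 36 over 0.1) and -0.230 to 0.0925 for the amacrine libraries (0 of 20). On simulated counts for GCL against BCL with 10912 genes, 41% of 2-fold and 80.6% of 4-fold changes were recovered with 3 false calls. For TH+ against TH- with 5663 genes these were 37.2% and 89.1% with 4 false calls.

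The genes, lists and tests were chosen with earlier results of these data known. Named were the 10 genes, up to 4 called genes with the largest change and up to 2 not called of each ganglion cell list, and the 3 genes nearest to Rbpms, Pou4f1 and Isl1. A gene that this rule names is not reported here. Promoters came from RefSeq (GRCm38.p6) and coding sequences from GENCODE on GRCm39. The promoter table used has no entry for Rbpms, and that of Pou4f3 was not used here. Gene lengths were those in the authors' mouse tables of cultured cells, with annotated exonic bases as an alternative. The human cells of the mixed culture were not analysed here.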

Additional observations from a re-analysis of the deposited data

Results flagged for a closer look

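In 4 of 50 groups of 4 or 5 sections, 1 section stood far from the others relative to the range of the group. The cut-off flags about 1 in 20 groups by chance where values are continuous, a rate that was not measured on these counts. It does not hold for groups of a few UMIs, since a group with 1 UMI in 1 section and 0 elsewhere is always flagged. Ebf3 stood at 32.5 CPM in ONL section 1, against 18.3 to 19.4 CPM in the other 3 sections. Sox11 stood at 1.38 CPM in ONL section 2, which was 1 UMI, against 0 in the others. Pou4f2 stood at 47.1 CPM in TH+ section 3, which was 2 UMIs, against 0 to 11.4 CPM in the others. Ebf1 stood at 141 CPM in TH- section 3, against 63.4 to 69.9 CPM in the others.

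Outside the retina, the mouse 3T3 fibroblasts of the mixed culture held 4 of the 10 genes above the limit that a count of 0 allows. Their mean levels were 61.6 CPM for Ebf1 (32 UMIs), 28.0 CPM for Ebf3 (16 UMIs), 488 CPM for Sox4 (262 UMIs) and 26.4 CPM for Rbpms (13 UMIs).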

How the results depend on the processing

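Of the 9 calls between the GCL and the BCL, 8 were kept in each alternative run, and that of Sox4 was lost in 7 of 11 (log2 fold change -0.66 to -0.32, adjusted p from 0.00582 to 0.337). All calls against the ONL were kept in each alternative in which the gene was tested; Sox11 was below edgeR's default filter, leaving 9 calls for the GCL and 3 for the BCL. With the section as a replicate block, the genes called between TH+ and TH- rose from 50 to 148 (96 higher, 52 lower), the log2 fold change of Pou4f1 between the BCL and the ONL was -0.0095, and Sox4 between the GCL and the BCL lost its call; the block changed no other call of the 10 genes. Leaving out 1 section gave 29 to 73 genes called between TH+ and TH-, with 29 without section 3 and 31 without section 5. Among differences that were not called, the sign turned between the BCL and the ONL for Rbpms with column totals (0.070), for Pou4f1 and Ebf3 with no filter (-0.017 and -0.026), and on leaving out 1 section for Pou4f1 (-0.25 to 0.26), Ebf3 (-0.24 to 0.11) and Tbr1 (-0.30 to 1.36). Between TH+ and TH- it turned on leaving out 1 section for Sox4 (-0.24 to 0.065), Ebf1 (-0.11 to 0.70) and Ebf3 (-0.34 to 0.054). The cause was not tested. Column totals moved the median log2 fold change of all genes by -0.17 (GCL against BCL), 0.17 (GCL against ONL) and 0.34 (BCL against ONL). Annotated exonic bases in place of the authors' lengths moved Rbpms from 65.1 to 25.2 CPM per kilobase in the GCL. Few UMIs in the BCL and TH+ libraries limit Pou4f3, Tbr1, Sox11 and Pou4f2.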

Other observations

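The other 6 genes, Pou4f1, Pou4f2, Pou4f3, Isl1, Tbr1 and Sox11, had 0 of the 540880 UMIs of the 3T3 wells (n = 3), which allows up to 5.55 CPM for each.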
